A study of Solanum lycopersicum with 40 samples.

Results

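Line N7 was compared with line N6 in the leaves of tomato seedlings (Solanum lycopersicum, the dwarf cultivar Micro-Tom). Both lines express InsP 5-ptase, an inositol polyphosphate 5-phosphatase, so the comparison asks how the lines differ although they carry the same kind of transgene. It rests on 6 of the 40 arrays of the study, 3 titled as leaves of N7 and 3 titled as leaves of N6, and the sample titles alone chose them. The study measured transcripts of ripe fruit, leaves and root tips in wild type (WT), a vector control (VC), N6 and N7, on 1 Affymetrix tomato array per sample. All 12 leaf samples were the first pair of leaves of untreated seedlings that had germinated in light on agar medium and were harvested at 10 days, with 3 arrays per genotype. By their titles, VC carries the vector and WT neither vector nor transgene. The promoter of the transgene, the origin of each line from 1 or several transformed plants, and the number of seedlings in a sample are not stated in the labels. Nor do the labels say that leaf replicates came from separate plants, so the samples of a genotype may be technical repeats. A p-value of the main test weighs a difference against a spread within genotypes. That spread was estimated from all 12 leaf arrays together, WT and VC included.

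Inositol polyphosphate 5-phosphatases remove a phosphate from soluble inositol phosphates, among them inositol 1,4,5-trisphosphate, a messenger that releases calcium inside cells. In plants this route takes part in responses to gravity, cold, drought and pathogens. In leaves, calcium signals, MAP kinase cascades and the hormones ethylene and jasmonate act upstream of many defence and stress genes.

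Each value is an Affymetrix signal, a linear intensity per probe set that the deposited table had already scaled so that every array has the same trimmed mean of 500. Signals under 50 were set to that floor, log2 was taken, and differences are N7 minus N6 on that scale. A probe set was called when limma's moderated two-sided test gave an adjusted p under 0.05 (Benjamini-Hochberg over the 6535 probe sets above the floor on at least 3 leaf arrays). The number of arrays, 3 per line, limits the precision.

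The reporter probe set A06498, the 1 of 63 reporter controls above the floor on a leaf array, separated the line arrays from the control arrays. Its signal was 186, 107 and 124 on the N6 arrays, 249.9, 632 and 428 on the N7 arrays, and at most 8.73 on the 6 control arrays. The means were 138.9 ± 41.9 in N6 and 436.6 ± 191 in N7 (SD, n = 3 each), and the groups did not overlap. An exact two-sided permutation test gave p = 0.1 for N7 against N6, the smallest value that 3 against 3 arrays allow. The labels do not say which sequence A06498 detects, and the introduced phosphatase gene itself was not analysed here. The samples carried the photosynthesis transcripts of leaf tissue: the 8 genes of that list had a summed signal of 59131 to 65603 in N6 and 66593 to 93070 in N7, and none was under the floor.

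The N7 arrays were less alike than the N6 arrays. Across probe sets, an N6 array correlated with the other N6 arrays at a median r of 0.977 to 0.979. N7 replicate 1 correlated with the N6 arrays at a median r of 0.965, and with the other N7 arrays also at 0.965. N7 replicate 3 correlated at 0.966 with the control arrays and at 0.952 with the other N7 arrays. The median SD of a probe set was 0.25 in N7 and 0.18 in N6 on the log2 scale. Without N7 replicate 3, 390 probe sets were called, and 204 of them were among the 293 called with all arrays. Without N7 replicate 1, 429 were called, 243 of them shared. Of the 29 named genes below, 21 were called without the former array and 23 without the latter. The mean log2 ratio of 3' to 5' signal of the control transcripts, a measure of RNA integrity and labelling, was 4.29 ± 0.28 in N6 and 4.58 ± 0.31 in N7 (SD, n = 3 each, exact permutation p = 0.4). In WT the ratio was 4.90 ± 0.21 and in VC 4.73 ± 0.35, so N6 had the lowest mean of the genotypes. With this ratio as a covariate, 84 probe sets were called, all of them among the 293.

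Between the lines, 293 of 6535 probe sets were called, or 4.48%. Of these, 183 were higher in N7 (2.8% of those tested) and 110 were lower (1.68%), and 185 (2.83%) differed over 2-fold, 106 upward and 79 downward. Over all 6535 probe sets 2896 differences were positive. Median scaling and quantile normalization gave 71.5% and 67.9% of calls higher in N7, against 62.5% with the deposited scaling. The count rests on single arrays: it ran from 63 without N6 replicate 2 to 703 without WT replicate 2. It was 96 without N7 replicate 2, 160 without N6 replicate 3 or VC replicate 1, 177 without VC replicate 2, 190 without WT replicate 3 and 194 without N6 replicate 1. Among the same 6535 probe sets, 692 (10.6%) were called between N6 and VC, 462 (7.07%) between N7 and VC, and 1 (0.0153%) between VC and WT. The last count came with 294 probe sets (4.5%) at an unadjusted p under 0.05 in limma, against 1636 (25%) between N7 and N6. These comparisons share arrays, so their values are given side by side only.

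Most of the called probe sets have no gene symbol in the platform's annotation. A symbol was given for 38 of the 293, and these made 29 named genes, 11 higher in N7 and 18 lower, out of 498 tested. The 3 N7 arrays did not overlap the 3 N6 arrays for any of the 29. These genes were chosen by their calls on the same arrays, so the separation adds no support. How often the lines separate over all tested probe sets was not counted. The plot of line differences gives each gene between the lines and each line against VC. For 9 of the 11 genes higher in N7, N6 lay farther from the mean of the 6 control arrays than N7 did, and the exceptions were vis1 and TSW12. The 18 genes lower in N7 split evenly, with N6 farther from the controls for 9 and N7 for 9.

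Most of these calls depend on the fit. With only the 6 line arrays, 6 of the 29 genes were called: Nramp2, GA20OX1, THM27, AG1, EIN2 and TGAS118. With no filter 8 were called: Nramp2, vis1, THM27, EIN2, MPK3, TIP, PR-P2 and GABA-TP3. With the 3'/5' ratio of each array as a term, 10 were called: these 8, GA20OX1 and CHI3. Median scaling called 24, all but DREB3, ER5, GABA-TP2, MYC2 and TBG5, and quantile normalization 26, all but AG1, GABA-TP2 and MYC2.

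Over all 293 called probe sets N6 was farther from the control mean in 177 and N7 in 116, a share of 60.4% for N6, and over all tested probe sets that share was 55.8%. By direction, N6 was farther in 101 of the 183 higher in N7 (55.2%) and in 76 of the 110 lower (69.1%). The split among the named genes is thus not that of all calls, where the share of N6 was larger among those lower in N7.

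**Figure D1:**
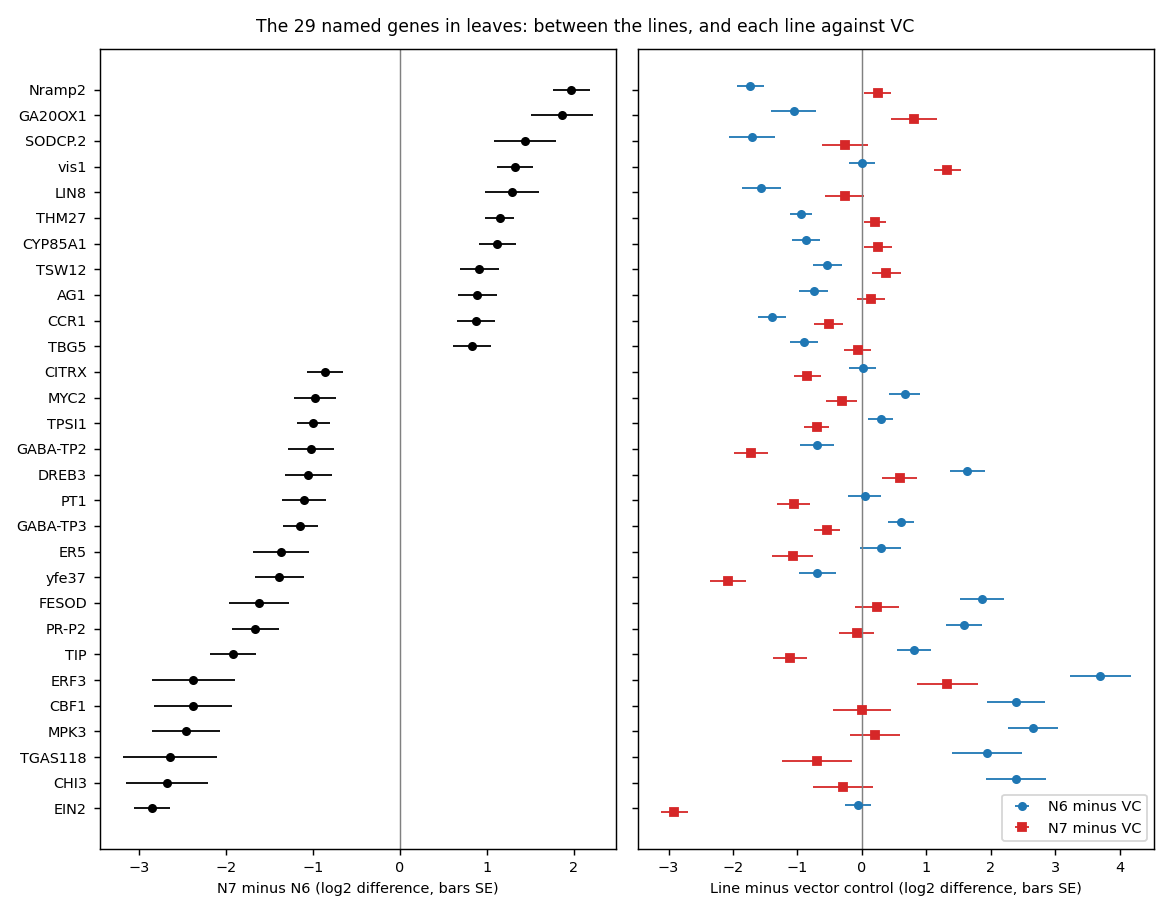
The 29 named genes in leaves, with the log2 difference N7 minus N6 (left, black) and each line minus the vector control (right, N6 as blue circles, N7 as red squares). Bars are standard errors from limma, and the 2 sides share arrays. EIN2 is at -2.85 between the lines with N6 at -0.06 from VC, while MPK3 is at -2.46 with N7 at 0.20 from VC.

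EIN2, a membrane protein needed for ethylene signalling, was the named gene with the lowest difference. Its signal was 772, 573 and 624 in N6 and 84.3, 111 and 78.9 in N7. WT arrays gave 689, 699 and 554, and VC arrays 757, 759.5 and 542. The N6 arrays thus lay among the controls or just above them, and every N7 array lay far below all other leaf arrays. EIN2 was 7.21-fold lower in N7 than in N6 (log2 difference -2.85 ± 0.20 SE, n = 3 each, limma adjusted p = 1.12e-05), with a 95% interval of -3.29 to -2.41. Against VC the difference was -0.06 in N6 (adjusted p = 0.891) and -2.91 in N7 (adjusted p = 1.48e-05).

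The same gap stood in root tips, where EIN2 gave 1081, 610.1 and 848 in N6 and 113, 77.9 and 54.3 in N7. The root tip difference was -3.40 ± 0.27 SE on the log2 scale (limma adjusted p = 0.000158), and the leaf and root tip differences were 0.55 ± 0.34 apart (adjusted p = 0.478). In ripe fruit the lines did not separate: the 4 arrays labelled N6 gave 32.7 to 68.2 and the 4 labelled N7 gave 46.6 to 70.6, while the 8 fruit control arrays gave 395 to 731. The fruit arrays labelled N6 differed from leaf and root tip N6 in the reporter as well, with a mean A06498 signal of 12.2 against 278 in fruit N7. The plot of 2 probe sets and the reporter shows all 40 arrays. Whether less transcript per cell or a change in the cells sampled lies behind a lower signal cannot be told apart in such bulk samples, here or for any gene below.

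**Figure D2:**
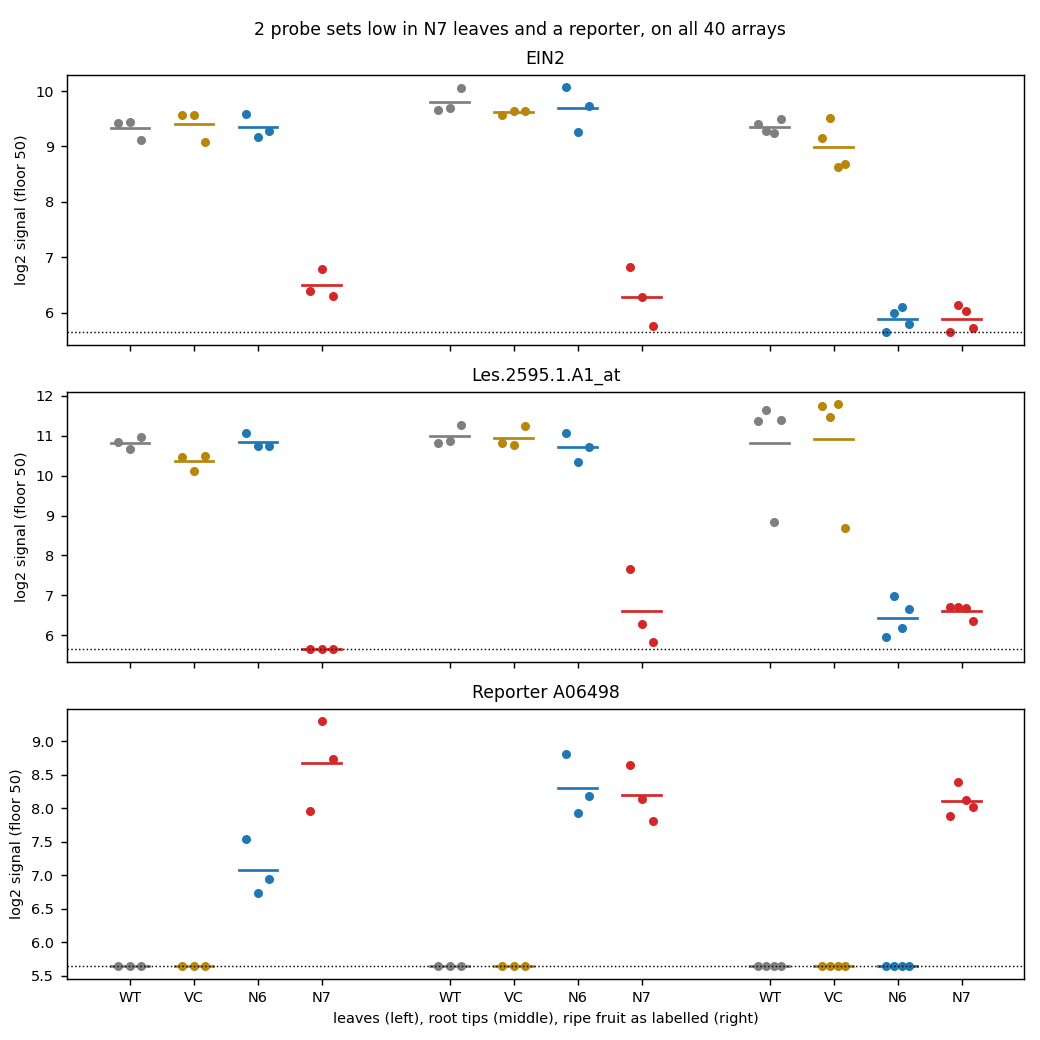
log2 signal (floor 50, dotted line) of EIN2, of the probe set Les.2595.1.A1_at and of the reporter A06498 on all 40 arrays, by tissue and genotype as labelled; points are arrays and lines are group means. In leaves and root tips N7 alone is low in both probe sets and both lines carry the reporter, while in fruit both lines are low and the arrays labelled N6 have the reporter at the floor.

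Few of the other ethylene genes were called between the lines. Of 16 tested genes for ethylene receptors and signal transduction, 0 were called higher in N7 and 2 lower, EIN2 and ER5, against 4.48% over all probe sets. Of the 16, 6 had an unadjusted p under 0.05, against 25% over all probe sets. The median difference of the list was -0.03, beside -0.05 over all probe sets tested. ER5, named for its response to ethylene and similar to late embryogenesis proteins, gave 177, 207 and 94.8 in N6 and 27.9, 22.8 and 81.2 in N7, with N7 replicate 3 close to the lowest N6 array (-1.36 ± 0.32 SE with the floor, limma adjusted p = 0.0364). With 2 of the 3 N7 arrays under the floor, the ER5 difference was -1.98 with a floor of 25 and -0.62, not called, with a floor of 100 (adjusted p = 0.137). The ER5 call was lost without any 1 of 6 arrays (N6 1, N6 2, N7 1, N7 2, VC 2 or WT 3), with adjusted p from 0.0551 to 0.146.

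Members that were not called are named from here on after their values were seen. The receptor genes ETR4 and ETR5 were above the controls in both lines. ETR4 gave 982, 954 and 1200.1 in N6, 549, 852 and 328 in N7, and at most 124 on a control array, and N7 minus N6 was -0.96 (95% interval -1.68 to -0.23, limma adjusted p = 0.118). ETR5 gave 189, 169 and 177 in N6 and 117, 141 and 78.5 in N7 (-0.70, adjusted p = 0.0712). The kinase gene CTR1, a negative regulator downstream of the receptors, was at 0.03, and the transcription factor genes EIL1 to EIL4 lay between -0.52 and 0.36, none called. None of the 6 tested genes of ethylene synthesis was called, and 2 of them had an unadjusted p under 0.05 (25% over all probe sets).

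The highest signals of several stress genes were on N6 arrays, and these genes made up the largest differences after EIN2 among the named genes that were lower in N7. MPK3, a MAP kinase activated by stress and pathogen signals, gave 589, 466 and 155 in N6 and 72.9, 70.1 and 36.4 in N7. The control arrays lay between 29.7 and 67.9, so N7 was near the controls and all 3 N6 arrays were above them. N7 minus N6 was -2.46 ± 0.39 SE with the floor (5.50-fold lower, limma adjusted p = 0.00512), and it was not called with only the 6 line arrays (adjusted p = 0.0887). With all 12 leaf arrays and the floor, under which 2 of the 3 VC arrays lay, the difference against VC was 2.66 in N6 (adjusted p = 0.00186) and 0.20 in N7 (adjusted p = 0.818). A second MPK3 probe set gave 321, 254 and 75.9 in N6 and 52.1, 35.5 and 41.1 in N7 (-1.86 with the floor, adjusted p = 0.0223). All its control arrays were under the floor. It reached the filter through its N6 arrays, so its call adds no support. Beside 4.48% called over all probe sets, MPK3 was the 1 called of 9 tested genes for MAP kinases, calcium and calmodulin signalling. Their median was -0.25, and 8 of the 9 differences were negative, which became 5 with median scaling and 7 with quantile normalization. The calcium pump gene LCA1 was at -0.03 and the calcium-dependent kinase genes CDPK1 and cpk1 at -0.08 and 0.08.

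ERF and DREB genes encode transcription factors that act in ethylene, cold and drought responses, and 3 of 11 tested were called, all lower in N7 (background 1.68% called lower). CBF1, among the 3, passed the filter only through its N6 arrays and had to differ, so it adds nothing to that count. ERF3 gave 709, 1192 and 324 in N6 and 129, 245 and 62.3 in N7, while all 6 control arrays were under the floor. N7 minus N6 was -2.38 ± 0.48 SE (limma adjusted p = 0.0201), and against VC, all of it under the floor, N6 was higher by at least 3.70 (adjusted p = 0.000854) and N7 by at least 1.32 (adjusted p = 0.12), on the log2 scale. Both lines were thus above the floor and the controls were not, with N6 the higher of the lines.

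CBF1, a factor of the cold response, was above the floor on the N6 arrays alone, with 382, 499.5 and 93.4. The other 9 leaf arrays gave 1.07 to 31.0, so CBF1 was at least 5.22-fold lower in N7 than in N6. It passed the filter on dim probe sets only through the N6 arrays, so it had to differ, and its call is no support. With no filter it was not called (limma adjusted p = 0.0744). DREB3 gave 155, 216 and 145 in N6 and 116, 93.9 and 39.0 in N7 (-1.05 ± 0.27 SE with the floor, limma adjusted p = 0.0497). Of the 11 genes 10 had a negative difference, 8 with either other scaling, and the median was -0.48. With median scaling 2 of the 3 calls were made. The ERF3 call was lost without N6 1 or N6 2 (adjusted p 0.0521 to 0.0882), the CBF1 call without N6 2 or N7 2 (0.0522 to 0.0677), and the DREB3 call without any 1 of 10 arrays, WT 2 and N7 1 being the ones it did not depend on (0.0605 to 0.184).

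CHI3, PR-P2 and TGAS118, which encode defence proteins, were lower in N7. CHI3, an acidic chitinase, gave 658, 872 and 598 in N6 and 162, 161 and 40.1 in N7, with control arrays at 85.9 to 302. The N6 arrays were above every other leaf array and the N7 arrays lay within or below the controls (-2.68 ± 0.47 SE, 6.40-fold, limma adjusted p = 0.0101). PR-P2, a pathogenesis-related protein of the PR-4 family, gave 158, 262 and 103 in N6 and 54.0, 31.9 and 38.3 in N7 (-1.66 ± 0.27 SE with the floor, adjusted p = 0.00725). As 2 of its 3 N7 arrays are under the floor, the PR-P2 difference depends on it: with a floor of 100 it was -0.70 and not called (adjusted p = 0.109). Nor was it called with only the 6 line arrays (0.0768). TGAS118, whose product is defensin-like, gave 1150.0, 918 and 1290.0 in N6 and 164, 134 and 254 in N7 (-2.64 ± 0.54 SE, adjusted p = 0.0208). The 6 control arrays ran from 99.2 to 717, below every N6 array and across the range of N7. The CHI3 call was lost without N6 2 (adjusted p = 0.0656), and that of TGAS118 without any 1 N6 array or without N7 2 (0.0550 to 0.0794).

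The list of pathogenesis-related proteins, chitinases and glucanases had 6 tested genes, 0 called higher and 1 lower, with a median of -0.59. The shares over all probe sets were 2.8% higher and 1.68% lower. PR-P2 is not in that list. CHI17, another chitinase, was not called: N6 gave 2099.9, 4680.4 and 1454, N7 gave 1095, 784 and 189, and the difference was -2.15 (95% interval -3.47 to -0.84, limma adjusted p = 0.0645). MYC2, a transcription factor of the jasmonate response, was lower in N7 (1209, 756 and 552 in N6, 355, 397 and 472 in N7; -0.97 ± 0.24 SE, adjusted p = 0.0435), and the call was lost without any 1 of 8 arrays, all but WT 1, WT 2, N6 3 and N7 3 (adjusted p 0.0616 to 0.129). It was also lost with median scaling (0.0611) and quantile normalization (0.0605). Of 10 tested genes of lipoxygenases and jasmonate synthesis 0 were called and 4 had an unadjusted p under 0.05 (25% over all probe sets), with loxD at -1.45 (adjusted p = 0.0939). None of 3 tested wound-induced or protease inhibitor genes was called.

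**Figure D3:**
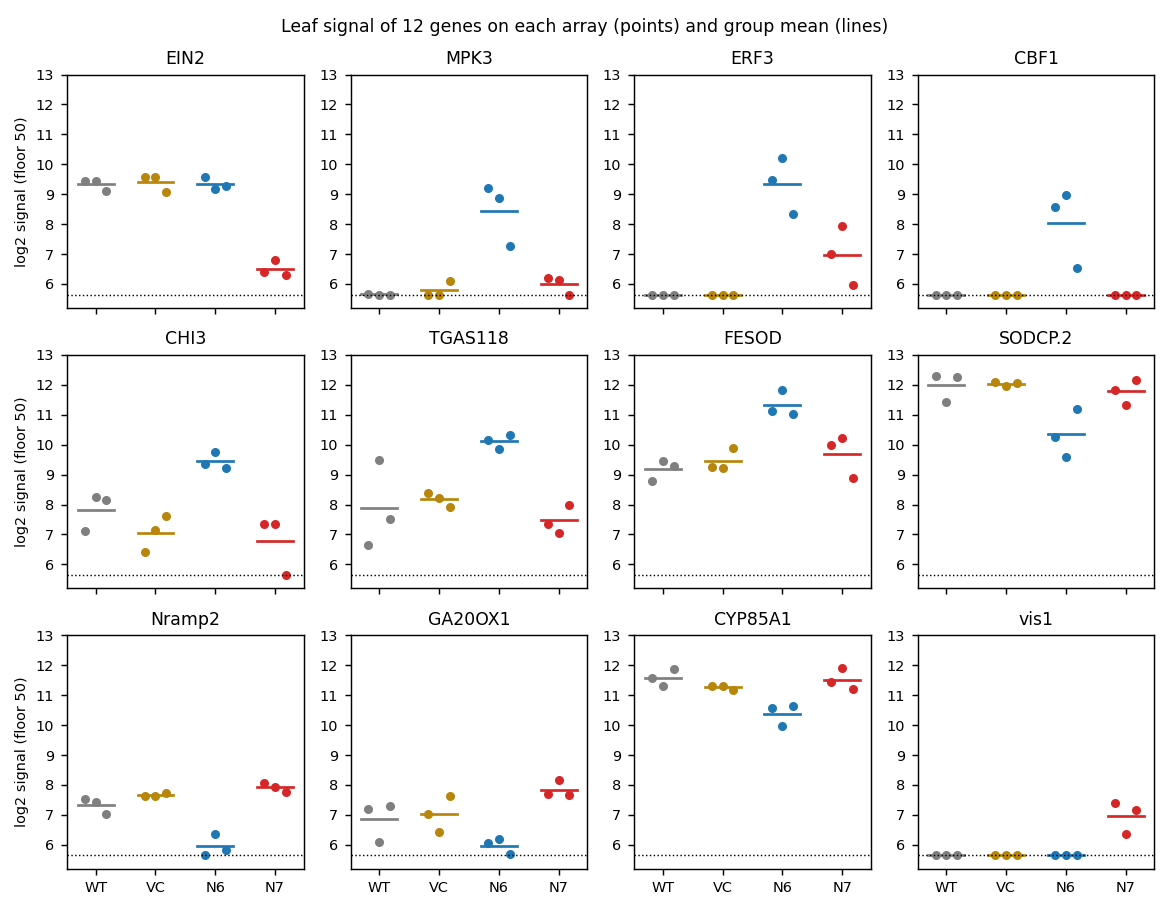
log2 signal (floor 50, dotted line) of 12 named genes on each of the 12 leaf arrays; points are arrays, in replicate order within a genotype, and lines are group means. MPK3, ERF3, CBF1, CHI3 and TGAS118 are highest in N6, EIN2 is low in N7 alone, and Nramp2, SODCP.2 and CYP85A1 are lowest in N6.

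Nramp2 and SODCP.2 were higher in N7 and FESOD was lower, by the brightest probe set of each. Nramp2, a metal ion transporter, gave 46.5, 82.8 and 56.5 in N6 and 268, 244 and 217 in N7, beside 131 to 214 on the control arrays. N7 was 3.93-fold higher, with 1 N6 array set to the floor (1.97 ± 0.21 SE, limma adjusted p = 0.000426), and against VC the difference was -1.73 in N6 (adjusted p = 0.000681) and 0.24 in N7 (adjusted p = 0.544). SODCP.2, the chloroplast copper/zinc superoxide dismutase, gave 1219.7, 767 and 2352 in N6 and 3668, 2596 and 4625 in N7 (1.44 ± 0.36 SE, adjusted p = 0.0441). FESOD, the iron superoxide dismutase, went the other way, with 2216, 3611 and 2099 in N6 and 1009, 1201 and 475 in N7 (-1.62 ± 0.34 SE, adjusted p = 0.0235).

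In Arabidopsis, copper supply sets which of these superoxide dismutase types chloroplasts make. Against VC, SODCP.2 was at -1.70 in N6 (limma adjusted p = 0.0119) and -0.26 in N7, and FESOD was at 1.86 in N6 (adjusted p = 0.00637) and 0.24 in N7. A dimmer second probe set of FESOD gave 0.60 (adjusted p = 0.586) and overlapped between the lines, so the probe sets disagree. The FESOD call was lost without N6 2 (adjusted p = 0.119) and that of SODCP.2 without any 1 of 9 arrays, all but WT 1, WT 2 and N6 3 (0.0628 to 0.160). The cytosolic SODCC.1 was at 0.52 (95% interval 0.18 to 0.86, adjusted p = 0.0787). It belongs to the list of 14 tested antioxidant enzymes, of which 0 were called and 3 had an unadjusted p under 0.05 (25% over all probe sets). That list leaves out SODCP.2 and FESOD, both called, so its count does not cover all antioxidant enzymes.

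PT1, a phosphate transporter, and TPSI1, a transcript induced by phosphate starvation, were both lower in N7. PT1 gave 706, 1026 and 503 in N6 and 279.9, 309.6 and 423 in N7 (-1.10 ± 0.25 SE, limma adjusted p = 0.0341). TPSI1 gave 946, 1381 and 1191 in N6 and 681, 609 and 475 in N7 (-0.99 ± 0.19 SE, adjusted p = 0.0178). For both, N7 was the line away from VC, at -1.06 for PT1 (adjusted p = 0.0281) and -0.70 for TPSI1 (adjusted p = 0.0494), with N6 at 0.04 and 0.29. The list of phosphate, sulfate and metal nutrition had 10 tested genes, 1 called higher and 2 lower (2.8% and 1.68% over all probe sets). The TPSI1 call was lost without N6 2 or N6 3 (adjusted p 0.0509 to 0.0874), and the PT1 call without N6 1, N6 2, N7 1, N7 2, VC 1 or WT 3 (0.0515 to 0.132).

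GA20OX1 and CYP85A1, which act in hormone synthesis, were higher in N7. GA20OX1, a gibberellin 20-oxidase, gave 66.2, 72.5 and 52.0 in N6 and 209, 288 and 202 in N7, a 3.65-fold difference (1.87 ± 0.35 SE, limma adjusted p = 0.0151). The control arrays spread from 68.8 to 200.1, the lowest within the range of N6 and none as high as N7, and neither line was called against VC (adjusted p = 0.0788 for N6 and 0.193 for N7). CYP85A1, the C-6 oxidase of brassinosteroid synthesis, gave 1506, 1005 and 1594 in N6 and 2767, 3846 and 2346 in N7 (1.12 ± 0.22 SE, adjusted p = 0.0174), and its second probe set gave 0.97 (adjusted p = 0.0376). N6 lay below all control arrays, and N7 lay among them or just above. Of the 5 tested genes of the gibberellin, brassinosteroid and cytokinin list, 2 were called higher, these genes, and 1 lower, TGAS118. Over all probe sets tested, 2.8% were called higher and 1.68% lower. The GA20OX1 call was lost without N6 2, N6 3 or N7 2 (adjusted p 0.0512 to 0.0601), and the CYP85A1 call without N6 2 or N7 2 (0.0601 to 0.0821).

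The remaining genes higher in N7 were mostly at control levels in N7 and below them in N6. LIN8, an invertase that splits sucrose, gave 357, 285 and 401 in N6 and 633, 678 and 1391 in N7 (1.29 ± 0.31 SE, limma adjusted p = 0.0376). THM27, a MYB transcription factor, gave 180.2, 191 and 213 in N6 and 439, 412 and 441 in N7 (1.15 ± 0.17 SE, adjusted p = 0.00374), and its 6 control values of 315 to 482 were all above N6. CCR1, a cinnamoyl-CoA reductase of lignin synthesis, gave 81.0, 119 and 115 in N6 and 172, 162 and 249.8 in N7 (0.88 ± 0.22 SE, adjusted p = 0.0441), with most control arrays above both lines.

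TBG5, a beta-galactosidase of the cell wall, gave 490.3, 566 and 543 in N6 and 752, 993 and 1137 in N7 (0.83 ± 0.21 SE, limma adjusted p = 0.0497). AG1, a MADS-box gene, was at 0.89 ± 0.22 SE (adjusted p = 0.0435). It was under the floor on all 3 N6 arrays, between 16.8 and 28.2, and gave 88.5, 86.8 and 104 in N7, so it was at least 1.86-fold higher in N7. With a floor of 100 the AG1 difference was 0.02 and not called (adjusted p = 0.955). TSW12, a lipid transfer protein gene induced by salt, gave 3242, 2350.0 and 2164 in N6 and 3618, 4465 and 6841 in N7 (0.91 ± 0.23 SE, adjusted p = 0.0435). The calls of LIN8, CCR1 and TBG5 were each lost without any 1 of 9 arrays, all but WT 1, WT 2 and N7 1. That of TSW12 was lost without any 1 of 8, all but WT 1, WT 2, N6 1 and N7 1, and that of AG1 without any 1 of 8, all but the WT arrays and VC 3. The adjusted p then lay between 0.0516 and 0.153 over these genes. THM27 kept its call under every alternative run.

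vis1, a small heat shock protein gene first known from fruit, was the named gene with signal in N7 alone. It gave 168, 82.3 and 143 in N7 and 10.3 to 34.5 on the other 9 leaf arrays, so it was at least 2.51-fold higher in N7 than in N6. It passed the filter on dim probe sets only through the N7 arrays, so it had to differ, and its call is no support. With only the 6 line arrays it was not called (limma adjusted p = 0.0820). Of the 2 other tested genes for heat shock proteins and chaperones, MTSHP was at 1.07 (95% interval 0.32 to 1.83, limma adjusted p = 0.1) and HSP21 at -0.08.

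Sugar, carotenoid and photosynthesis genes gave 1 call between the lines. Of 18 tested genes of sucrose and hexose metabolism 1 was called, LIN8, against 4.48% over all probe sets. In this list 14 differences were positive, with a median of 0.22, beside 2896 positive of all 6535. Both other scalings called 2. The sucrose synthase gene sus3 was at 0.62 (limma adjusted p = 0.0653) and CIF1, an invertase inhibitor, at 0.68 (95% interval 0.09 to 1.28, adjusted p = 0.157). None of 14 carotenoid genes was called, with a median of 0.33 and 3 at an unadjusted p under 0.05 (25% over all probe sets), PSY2 highest at 0.92 (adjusted p = 0.115). None of the 8 photosynthesis genes was called and none reached an unadjusted p under 0.05. All 8 were positive, from 0.17 for PSBR to 0.39 for PsbQ, but with quantile normalization 6 were and the median fell from 0.31 to 0.06.

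**Figure D4:**
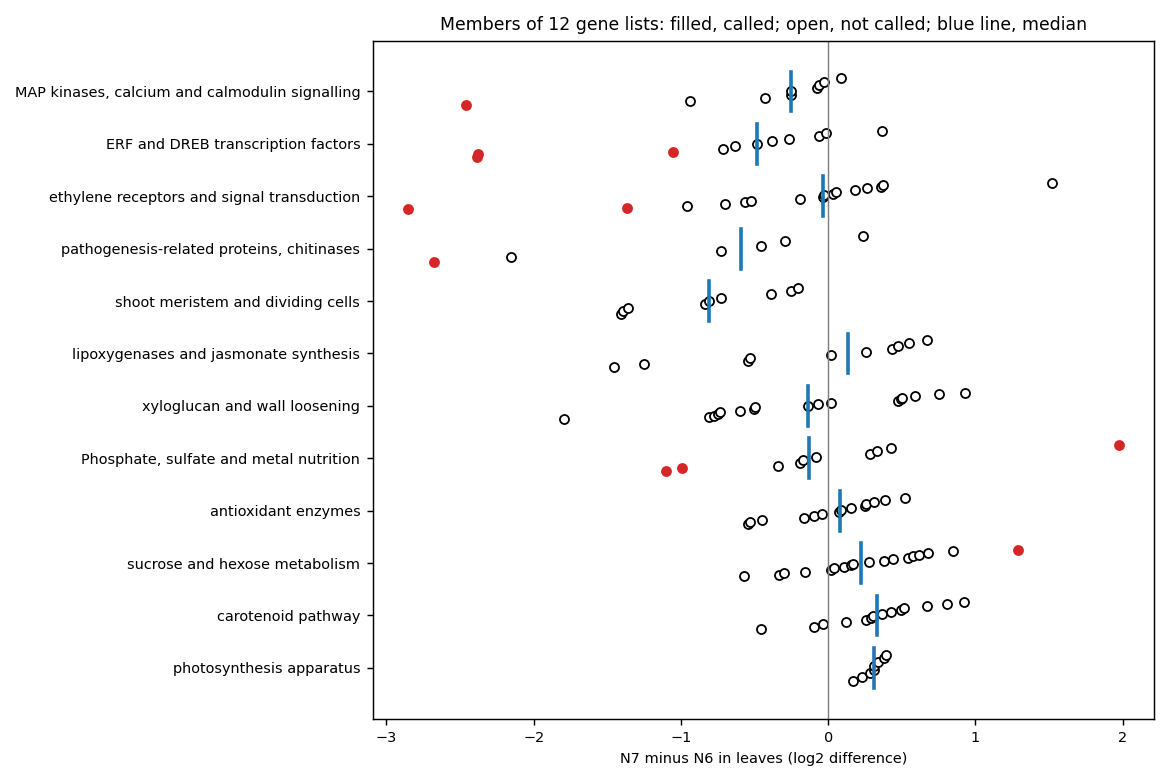
Log2 difference N7 minus N6 in leaves for the tested members of 12 gene lists; each circle is a gene, filled red where limma called it and open where it did not, and the blue line is the list's median. The filled circles of the ERF and DREB, kinase and pathogenesis-related lists lie left of 0, and those medians are -0.48, -0.25 and -0.59, while the median over all probe sets is -0.05. Among the filled ERF and DREB circles is CBF1, which had to differ because it passed the filter through N6 arrays only.

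For the remaining genes lower in N7, N7 lay farther from the mean of the control arrays than N6 did, though N6 was not always at that mean. TIP, a tonoplast aquaporin that is abundant in roots, gave 348, 489.8 and 332 in N6 and 158, 79.7 and 82.9 in N7, and 205 to 355 on the control arrays (-1.92 ± 0.26 SE, limma adjusted p = 0.00228). It was the 1 called gene of 3 tested root markers, against 4.48% called over all probe sets. The median of the 3 markers was -0.99, with RSI-1 at -0.99 (limma adjusted p = 0.238) and TPx1 at 0.26 (0.311). Their summed signal was 3770 to 3987 in N6 and 3623 to 4832 in N7. TPx1, at 2881 to 4716 on the leaf arrays, made up most of that sum, so the sum says little on TIP and RSI-1. The defining root gene FER was under the floor on every leaf array.

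GABA-TP3 and GABA-TP2, GABA transaminases that break down gamma-aminobutyrate, were both lower in N7. GABA-TP3 gave 375, 398 and 503 in N6 and 172, 189.7 and 213 in N7 (-1.14 ± 0.20 SE, limma adjusted p = 0.00979), and GABA-TP2 gave 731, 858 and 614 in N6 and 309, 248 and 595 in N7 (-1.03 ± 0.26 SE, adjusted p = 0.0497). The GABA-TP3 control arrays gave 233 to 362, below every N6 array and above every N7 array. Against VC, GABA-TP3 was at 0.60 in N6 (limma adjusted p = 0.0785) and -0.54 in N7 (0.126), neither called. GABA-TP2 was at -0.69 in N6 (0.121) and -1.72 in N7 (0.00479). The third gene of the family, GABA-TP1, was at -0.03, and the list of nitrogen, GABA and polyamine metabolism, which holds GABA-TP1 but leaves out GABA-TP2 and GABA-TP3, had 0 calls among 10 tested genes. The thioredoxin gene CITRX gave 1835, 2420.3 and 2559 in N6 and 1759, 919.5 and 1177 in N7 (-0.86 ± 0.21 SE, adjusted p = 0.043). The gene yfe37, for which no role is given, gave 2344, 2908 and 1924 in N6 and 865, 579 and 1459 in N7 (-1.39 ± 0.28 SE, adjusted p = 0.0206). In both, N6 was near WT and N7 below it. The calls were lost without any 1 of 10 arrays for GABA-TP2, all but WT 2 and N7 3 (0.0602 to 0.184), any 1 of 9 for CITRX, all but WT 2, N6 1 and N7 1 (0.0513 to 0.150), and N6 1, N6 2 or N7 2 for yfe37 (0.0506 to 0.101).

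The inositol phosphate and phosphoinositide list was thinly covered, with 6 of its 31 genes on the array. Of 4 tested genes of inositol phosphate and phosphoinositide metabolism 0 were called and 0 had an unadjusted p under 0.05. The inositol monophosphatase genes IMP1 and IMP3, which release free inositol, were at 0.00 and 0.09, with 95% intervals of -0.51 to 0.51 and -0.42 to 0.59. The phospholipase D genes PLDa1 and PLDb1 were at -0.03 and -0.27, the latter with an interval of -0.99 to 0.44, so a change of nearly 2-fold could be missed there.

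Lists for xyloglucan enzymes and wall loosening (17 tested), auxin response (6), phenylpropanoid and flavonoid enzymes (5) and translation factors (2) had 0 calls. Of their genes 4, all in the wall list, had an unadjusted p under 0.05 (25% over all probe sets). The phenylpropanoid list leaves out CCR1, which was called higher in N7, so its count does not cover every such enzyme. In the wall list, tXET-B2, a xyloglucan endotransglycosylase, was at -1.80 (limma adjusted p = 0.057) and the expansin gene EXP2 at 0.75 (adjusted p = 0.0584). The pectin and wall glycan list had 1 call in 9, TBG5, and the list of dehydration and abscisic acid had 2 in 8, TSW12 higher and ER5 lower. Over all probe sets 4.48% were called. With median scaling, neither TBG5 nor ER5 was called.

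Markers of dividing cells pointed one way without a call. None of 9 tested genes of the shoot meristem and of dividing cells was called, and 4 had an unadjusted p under 0.05 (25% over all probe sets). All 9 differences were negative under the deposited and both other scalings, with a median of -0.81. Over all 6535 probe sets 2896 differences were positive with the deposited scaling. CDKB1, a kinase of the cell cycle, gave 443, 615 and 762 in N6 and 400.3, 125 and 230.4 in N7 (-1.39, 95% interval -2.38 to -0.40, limma adjusted p = 0.102). CDKB2 was at -1.41 and the cyclin gene CycA1 at -1.36. The summed signal of the 9 genes was 5452 to 7296 in N6 and 2569 to 5005 in N7, and the WT and VC arrays reached from 3423 to 6984. The meristem genes WUS and LS were under the floor on every leaf array and TKN3 reached 70.1 at most. The part of dividing cells in the differences between the lines was not tested. The trichome marker MTS1 was under the floor on every leaf array, and of the flower markers LAT61 alone was tested, at -0.38 and not called.

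The probe sets with the largest differences carry no symbol, and the 2 highest and 2 lowest are given by their identifier. Les.2595.1.A1_at gave 2151, 1704 and 1719 in N6 and 28.6, 38.6 and 29.8 in N7, and 1103 to 2015 on the control arrays. It was well above the floor in the other genotypes and under it in N7, at least 36.9-fold lower than in N6 (-5.21 ± 0.15 SE with the floor, limma adjusted p = 2.01e-09). Les.1424.2.S1_at had the opposite form, with 155, 144 and 95.8 in N6, 3187, 3330.1 and 2566 in N7 and 1433 to 3977 in the controls. It was low in N6 alone, and N7 was 23.3-fold higher (4.55 ± 0.29 SE, adjusted p = 4.99e-06).

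Les.5939.1.S1_at gave 2556, 2421 and 950.5 in N6, 311, 348 and 96.5 in N7 and 75.7 to 109 on the control arrays (-3.05 ± 0.47 SE, limma adjusted p = 0.00488). Les.4876.1.S1_at gave 90.5, 22.7 and 43.0 in N6 and 1017, 2347 and 147 in N7 (3.53 ± 0.82 SE with the floor, adjusted p = 0.0358; 2.82 and not called with a floor of 100, adjusted p = 0.0663). Its control arrays ran from 417 to 1528, so N7 replicate 3 lay below all of them, and the call was lost without any 1 of 8 arrays, all but WT 1, WT 2, VC 3 and N7 3 (adjusted p 0.0507 to 0.132). EIN2, Nramp2, THM27, Les.2595.1.A1_at and Les.1424.2.S1_at were the 5 of these 33 genes and probe sets called under all 25 alternatives.

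The called probe sets also differed in where the control plants express them. Called probe sets higher in N7 had a median leaf-minus-root-tip difference of 0.39 (log2) in the controls, and 38.3% of them were over 2-fold higher in leaves. Those lower in N7 had a median of -0.92, and 46.4% of them were over 2-fold higher in root tips. Over all probe sets tested in leaves the median was -0.21, with 19.1% over 2-fold higher in leaves and 23.5% over 2-fold higher in root tips. All 6 leaf control arrays were under the floor for 20% of the probe sets lower in N7, for 2.73% of those higher and for 1.74% of all tested. With the controls under the floor, a probe set was tested only if at least 3 line arrays were above it. Those that passed through the arrays of the higher line alone had to differ, so the filter fixes part of this contrast. No test was made of these shares, since probe sets are not independent.

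Few probe sets were called between the same lines in root tips. Of 6495 probe sets tested there, 3 were called between N7 and N6 (0.0462%), and 242 had an unadjusted p under 0.05. All 3 were lower in N7 and were also called in leaves, which makes 1.22% of the 245 leaf calls kept in root tips. They are EIN2, Les.2595.1.A1_at and LesAffx.59549.1.S1_at. Les.2595.1.A1_at gave 203, 78.1 and 56.9 in N7 root tips and 2156, 1297 and 1679.6 in N6 root tips (-4.12 ± 0.37 SE, limma adjusted p = 0.000298). LesAffx.59549.1.S1_at gave 321, 183 and 249.7 in N6 leaves and 68.1, 33.2 and 31.3 in N7 leaves (-2.14 ± 0.40 SE, adjusted p = 0.0148). In root tips it was -1.38 ± 0.19 (adjusted p = 0.0237).

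The leaf and root tip differences were set against each other in 1 fit of 24 arrays over 5741 probe sets. Across them the differences had a Pearson r of 0.04, given as a description, since probe sets are not independent replicates. Of the 245 leaf calls, 130 (53.1%) had the same sign in root tips, beside 48.9% over all 5741. The difference between tissues was called for 47 probe sets (0.819%), of which 42 were among the leaf calls; 13 were more positive in leaves and 34 more negative. This count ran from 9 without leaf N6 replicate 2 to 94 without leaf N7 replicate 1.

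The genes that were highest in N6 leaves made up most of the named tissue differences. CHI3 was at -2.68 in leaves and 1.86 in root tips, a gap of -4.54 ± 0.93 SE (limma adjusted p = 0.023). For ERF3 the gap was -3.83 ± 0.64 (adjusted p = 0.00353), for MPK3 -3.56 ± 0.52 (0.00097), for TGAS118 -3.19 ± 0.65 (0.023) and for TIP -1.65 ± 0.31 (0.0144). THM27 had a gap in the other direction, 1.38 ± 0.31 (0.0376). In root tips MPK3 gave 63.8, 64.9 and 122 in N6 and 234, 133 and 160.3 in N7, so the order of the lines was turned there, but the root tip difference was not called (adjusted p = 0.745). The labels contradict each other on whether root tip seedlings grew in the dark, so light and tissue cannot be told apart in this contrast.

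**Figure D5:**
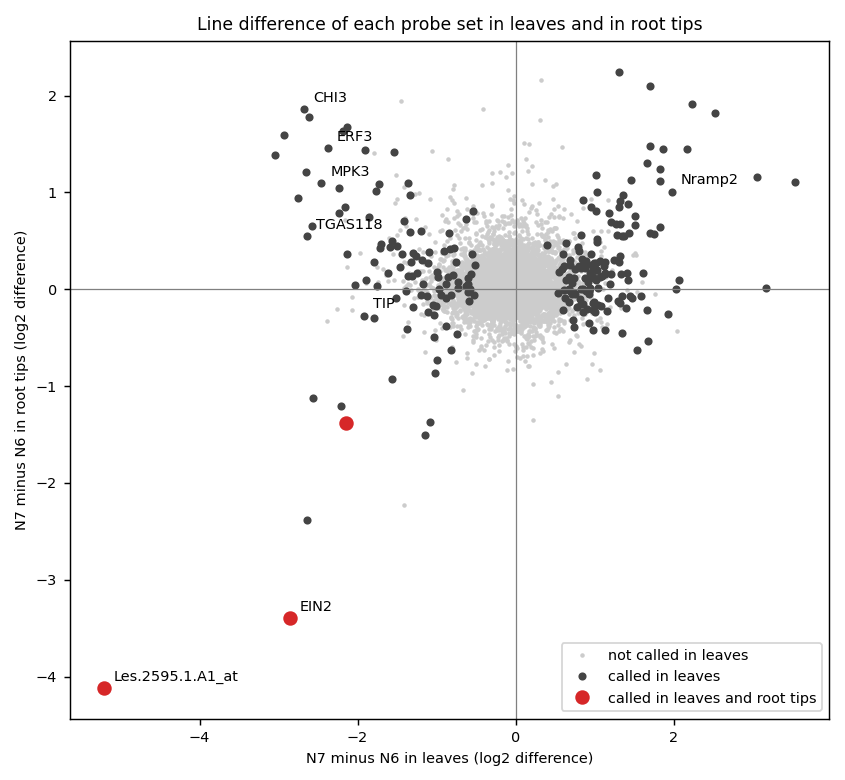
Log2 difference N7 minus N6 in leaves (horizontal) against that in root tips (vertical) for the 5741 probe sets kept in both tissues; grey, not called in leaves; black, called in leaves; red, called in both. The 3 red points lie at the lower left, and CHI3, ERF3 and MPK3 lie above 0 in root tips and below -2 in leaves.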

How the data were processed

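The authors deposited 1 table of linear intensity values, Affymetrix signals made with GCOS per the submitters' processing notes. GCOS version and settings are not stated in the labels. Each array's mean after trimming 2% at either end was 500. Signals under 50 were set to 50 before log2. Of 10209 probe sets, 108 AFFX and 63 reporter controls were left out. Differences came from limma 3.58.1 in R 4.3.3, fitted on the 12 leaf arrays (12 root tip arrays, or all 24 for the tissue contrast) with a mean per group, a variance trend and no covariate, adjusted by Benjamini-Hochberg over all probe sets tested. Symbols came from the platform's annotation (909 probe sets with 1 symbol). Of these, 885 matched the gene table of assembly SLM_r2.1, used for names only.

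Named genes are the called genes with a symbol other than LOC plus digits (at most 20 in each direction, the brightest tested probe set of a gene) and called members of 26 gene lists. The 2 highest and 2 lowest probe sets without a symbol were added. The members and lists were chosen with earlier results of these data known. Same-numbered arrays of the lines did not deviate together (r of deviations -0.28, -0.29 and 0.10), so the numbers do not pair them. On simulated data for N7 against N6 in leaves (6535 probe sets), the script recovered 9.0% of changes of 1.5-fold, 68.7% of 2-fold and 97.0% of 4-fold, with 2 false calls. Alternatives changed the floor, scaling, filter, arrays, spread and covariates.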

Additional observations from a re-analysis of the deposited data

Results flagged for a closer look

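Of the genes and probe sets named by the rule, 7 had a difference between N7 and N6 that differed between leaves and root tips by limma's test of that contrast (Benjamini-Hochberg over 5741 probe sets). The leaf difference minus the root tip difference was -4.54 for CHI3, -4.43 for Les.5939.1.S1_at, -3.83 for ERF3, -3.56 for MPK3, -3.19 for TGAS118, -1.65 for TIP and 1.38 for THM27, all on the log2 scale.

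The reporter probe set A06498, which lies outside the tested probe sets, had a mean signal of 436.6 in leaf N7 and 138.9 in leaf N6, above all 6 leaf control arrays, which reached 8.73 at most.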

How the results depend on the processing

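No gene or probe set named by the rule turned its direction under the 25 alternatives for N7 against N6 in leaves, 12 of which left out 1 array (24 for CBF1 and vis1, which the filter with a floor of 100 removed); of 33, 5 were called under all, 22 lost the call without at least 1 array and 28 under at least 1 other setting, mostly the 3 named next. The count of 293 fell to 91 with no filter, 81 with only the 6 arrays of the lines, and 84 when the 3'/5' ratio of each array was a covariate, and 8, 6 and 10 of the 29 named genes were called there. With the replicate block it was 195, which included 186 of the 293 and 19 of the 29, and without 1 array it ranged from 63 to 703. The other settings gave 260 to 380. N6 against VC gave 692, which became 393 with no filter, 263 with the covariate, 2252 with array weights and 258 to 926 without 1 array. N7 against VC gave 462, which became 219, 1502 with array weights and 121 to 972 in the same order, with no such move for the covariate. VC against WT gave 1, then 0 with a floor of 25, without a floor, with no filter, with the stricter filter, with the replicate block and with the covariate, 234 with array weights and 0 to 4 without 1 array. The estimate of array weights stopped before it converged. In root tips the 3 calls became 5 with a floor of 100, 2 with the replicate block (pairing by number is not shown by the data) and 2 to 9 without 1 array. The tissue contrast of 47 became 46 with the replicate block and 9 to 94 without 1 array. The cause of these moves was not tested. With a whole line under the floor, the folds of AG1, CBF1, vis1 and Les.2595.1.A1_at are lower bounds; with part of a line under it, the differences of Nramp2, CHI3, MPK3, PR-P2, ER5, DREB3 and Les.4876.1.S1_at depend on the floor.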
